A study of Mus musculus with 64 samples.

Results

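Rab GTPases are small membrane switches that mark the compartments of the cell, and the expression of 52 of them was measured here in the prefrontal cortex (PFC) and hypothalamus of mice that had received psilocybin or saline, together with the 4 genes that attach their lipid anchor. The members were all protein-coding genes with a Rab name (Rab, a number and at most 1 letter and 1 further digit), plus Chm, Chml, Rabggta and Rabggtb, with a mean of at least 1 CPM (reads of a gene per 1000000 counted reads) over the libraries. Of 63 such genes among the 55401 in the table, 56 passed. Rab43 (0.691 CPM), Rab20 (0.411), Rab38 (0.401), Rab19 (0.182), Rab44 (0.168), Rab25 (0.116) and Rab17 (0.0979) fell under the threshold. Just above it were Rab42 (1.10 CPM), Rab39 (1.91) and Rab32 (2.03). The set was picked for its log2 fold changes in the PFC at 3 h after psilocybin, so the counts and values given below for that contrast, and for any other that uses its samples, are a description and no test of the set.

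A Rab protein is active when bound to GTP and inactive when bound to GDP. Exchange factors switch it on, GTPase-activating proteins switch it off, and in its active form it recruits effectors that move, tether and fuse vesicles. To reach a membrane it needs geranylgeranyl groups at its C-terminus. A Rab escort protein, encoded by Chm or its relative Chml, presents the newly made Rab to Rab geranylgeranyl transferase, whose alpha and beta subunits are encoded by Rabggta and Rabggtb, and GDP dissociation inhibitors later draw the Rab back off the membrane. In neurons, Rab3 and Rab27 proteins are best known for synaptic vesicles and other regulated secretion.

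The mice were lean, chow-fed, group-housed C57BL/6J males, 10 weeks old at the start. Each received a single intraperitoneal injection of isotonic saline (vehicle) or of psilocybin, a psychedelic tryptamine whose product psilocin acts on serotonin receptors, at 3 mg/kg. They were sacrificed 3 h or 4 weeks later, and both regions were taken from each mouse. This gave 8 groups of 8 samples. Because 1 hypothalamus library (saline, 3 h) and 1 PFC library (psilocybin, 4 weeks) held almost no reads, 62 libraries entered the tests, with 8061033 to 70361839 counted reads each. All samples were bulk tissue, in which fewer cells of a type and less RNA per cell cannot be told apart. The cortical excitatory marker list summed to 1266 to 1929 CPM in PFC and 71.1 to 181 CPM in hypothalamus libraries. The hypothalamic list summed to 15.8 to 42.1 CPM in PFC libraries and 367 to 879 CPM in 30 hypothalamus libraries. It reached 2689 CPM in the remaining one, psilocybin replicate 5 at 4 weeks. Each region thus carried the markers of its label. Among the hypothalamus libraries, psilocybin replicate 5 at 4 weeks stood apart: 46 of the 56 members lay outside the range of the other 7 libraries. Among the PFC libraries, psilocybin replicate 7 at 3 h did so for 40 members. The share of all genes outside the range in these libraries is not given here, so the counts describe the libraries and nothing particular to the members. Values without these libraries are given beside the results that they move.

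The promoter sequences of 4 members are shown because these genes were called between the regions in both treatments, Rab40b and Rab3d being higher in the PFC, Rab27a and Rab3c higher in the hypothalamus. Each is the 250 bases before the RefSeq start, 5′ to 3′ on the gene's strand, in the build GRCm38.p6: chr11:121388252-121388501 for Rab40b, chr9:21918184-21918433 for Rab3d, chr13:110280207-110280456 for Rab3c, these on the minus strand, and chr9:73044560-73044809 for Rab27a on the plus strand, where the first of its 2 starts is shown. The GENCODE model of Rab3c begins further upstream. Capitals mark the GC box, GGGCGG, on either strand.
Rab40b: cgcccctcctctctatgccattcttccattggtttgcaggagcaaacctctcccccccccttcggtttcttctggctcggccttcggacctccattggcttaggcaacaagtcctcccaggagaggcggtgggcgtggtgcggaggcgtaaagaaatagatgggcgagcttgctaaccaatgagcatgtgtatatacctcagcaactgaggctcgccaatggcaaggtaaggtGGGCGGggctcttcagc
Rab3d: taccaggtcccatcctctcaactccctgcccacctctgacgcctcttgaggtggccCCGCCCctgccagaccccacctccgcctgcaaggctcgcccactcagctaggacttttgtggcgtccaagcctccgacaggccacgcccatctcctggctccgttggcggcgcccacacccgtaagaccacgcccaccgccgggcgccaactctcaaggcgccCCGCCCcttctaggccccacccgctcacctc
Rab27a: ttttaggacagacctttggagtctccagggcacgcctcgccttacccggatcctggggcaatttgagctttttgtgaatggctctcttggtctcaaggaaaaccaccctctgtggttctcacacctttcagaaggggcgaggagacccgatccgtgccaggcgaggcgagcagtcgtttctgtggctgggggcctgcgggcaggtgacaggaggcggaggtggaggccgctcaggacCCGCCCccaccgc
Rab3c: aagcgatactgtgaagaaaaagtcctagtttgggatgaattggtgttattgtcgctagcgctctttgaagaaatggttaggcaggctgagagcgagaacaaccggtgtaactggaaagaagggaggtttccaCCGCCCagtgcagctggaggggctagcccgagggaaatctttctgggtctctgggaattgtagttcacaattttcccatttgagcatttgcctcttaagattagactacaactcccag
Rab3d had 2 GC boxes and the other 3 promoters had 1 each. Their GC content ran from 47.6% for Rab3c to 69.2% for Rab3d. The GC box was found in 32.7% of all 32851 mouse promoters of this length. None of the 4 promoters held the cAMP response element TGACGTCA, the E-box CACGTG or the TATA box TATAAA, which were found in 1.55%, 6.02% and 12.4% of all promoters. RefSeq entries were matched for 47 of the 56 members, some with several starts, and 38 of their 59 promoters (64.4%) held a GC box. A match of letters is a description of the sequence and not a binding site.

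Levels were compared between genes as RPKM, which is CPM divided by gene length in kilobases. In the PFC of saline mice at 4 weeks, the most abundant members were Rab6b and Rab6a (retrograde traffic at the Golgi, Rab6b being the form enriched in brain), Rab3a (the main Rab of synaptic vesicles), Rab2a (traffic between endoplasmic reticulum and Golgi) and Rab7 (late endosomes and lysosomes). Rab6b had 234 ± 15.9 RPKM (SD, n = 8) and Rab3a had 220.4 ± 10.02 RPKM, a gap smaller than the sum of their SDs. Rab6a followed with 160.2 ± 24.6 RPKM, then Rab2a with 115 ± 22.6 and Rab7 with 104 ± 4.57 RPKM, the last pair again within their spread. In the hypothalamus Rab3a led with 190.1 ± 11.002 RPKM (SD, n = 8), followed by Rab6b with 142 ± 9.52, Rab2a with 123 ± 4.46, Rab6a with 116 ± 6.70 and Rab7 with 90.6 ± 3.49 RPKM. Rab2a and Rab6a did not differ there beyond their spread. In the other roles the most abundant members were Rab5c of early endosomes (61.6 ± 6.35 RPKM in the PFC and 55.4 ± 4.62 in the hypothalamus), Rab10 of Golgi-to-surface traffic (42.8 ± 7.21 and 43.2 ± 1.43), and, of recycling endosomes, Rab15 in the PFC (70.4 ± 4.31) and Rab11a in the hypothalamus (45.2 ± 1.56). Rabggtb was the most abundant prenylation gene in both regions (18.5 ± 1.22 and 19.1 ± 0.751). The leading 5 genes made up 49.6% of the members' summed RPKM in the PFC and 44.0% in the hypothalamus. The sum itself was 1682 ± 76.9 RPKM in the PFC and 1502.5 ± 32.7 RPKM in the hypothalamus of saline mice, and 1683 ± 53.5 (n = 7) and 1508 ± 107.5 (n = 8) RPKM in psilocybin mice (1473 ± 46.0 in the 7 hypothalamus libraries left without replicate 5).

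**Figure D1:**
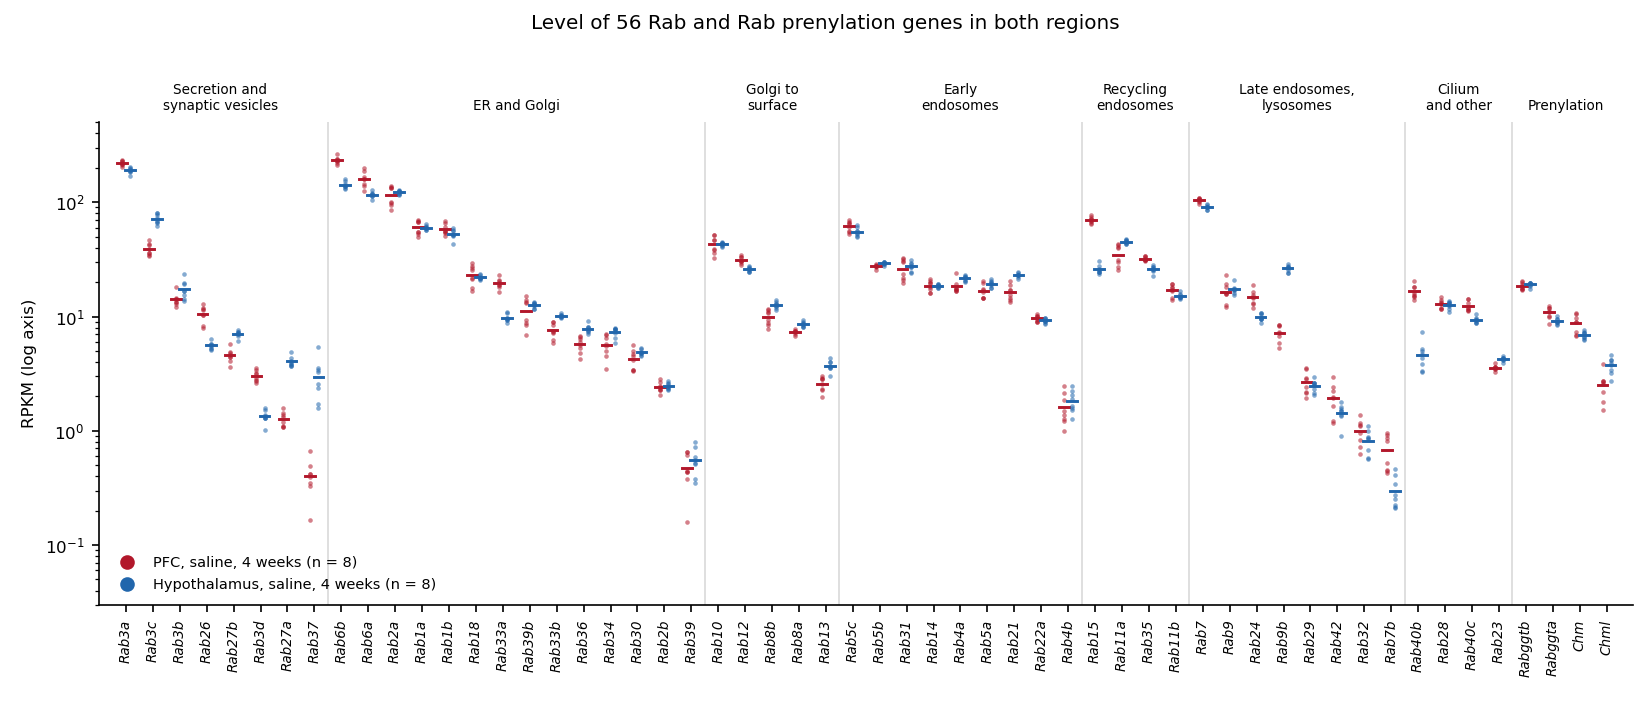
RPKM on a log axis of the 56 members in the PFC (red) and hypothalamus (blue) of saline mice at 4 weeks, grouped by the compartment each Rab serves. Points are libraries (n = 8 per region) and bars are means, and levels run from Rab6b at 234 RPKM in the PFC down to Rab7b at 0.299 RPKM in the hypothalamus.

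The first tested question was which Rabs set the PFC apart from the hypothalamus, in saline mice at 4 weeks. The members split about evenly: 16 were higher in the PFC and 17 lower, and 23 passed in neither direction, at an adjusted p under 0.05 (edgeR, quasi-likelihood test, Benjamini-Hochberg adjusted over 18971 genes). Of all genes tested, 29.5% were called higher in the PFC and 25.7% lower. The median log2 fold change was -0.03 over the members and 0.04 over all genes. In 21 members (37.5%) the 8 PFC and 8 hypothalamus libraries did not overlap in CPM, as in 29.1% of all genes. The regions were extracted in separate pools, so a difference between regions and one between extraction pools cannot be told apart.

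Rabs of regulated secretion were the role in which every member passed: 3 of 8 were higher in the PFC and 5 lower, with a median log2 fold change of -0.46. Rab3a (chr8:70754679-70758677, plus strand) had a lowest, median and highest value of 204, 219.8 and 234 RPKM in the PFC and 169, 190.2 and 204 RPKM in the hypothalamus. The groups met only at that edge, and the log2 fold change was 0.21 (SE 0.09, adjusted p = 0.0327). That call ended under 5 of 14 other settings of the processing, among them DESeq2 (adjusted p = 0.106). The call also ended without any 1 of PFC replicates 3 and 8 and hypothalamus replicates 3, 7 and 8 (edgeR adjusted p = 0.0540 to 0.0986). Its paralog Rab3c (ENSMUSG00000021700.10, chr13:110054187-110280901, minus strand) had 34.0, 37.4 and 46.4 RPKM in the PFC and 62.1, 71.1 and 81.0 RPKM in the hypothalamus. Every hypothalamus library was above every PFC library, with a log2 fold change of -0.89 (SE 0.11, adjusted p = 5.53e-10). Rab3b, also a neuronal form, was lower in the PFC as well, by a smaller step of -0.30 on the log2 scale (SE 0.11, adjusted p = 0.0203), with overlapping groups of 12.2 to 18.1 and 13.5 to 23.6 RPKM. Without hypothalamus replicate 1 or 6 it did not pass (edgeR adjusted p = 0.0549 and 0.0754), nor did it under 1 of 14 other settings. Rab3d (ENSMUSG00000019066.13, chr9:21907491-21918139, minus strand), a Rab of secretory granules best known from exocrine cells, went the other way. It had 2.62, 3.01 and 3.54 RPKM in the PFC and 1.01, 1.32 and 1.595 RPKM in the hypothalamus, without overlap, and a 2.30-fold higher level (log2 1.20, SE 0.13, adjusted p = 2.11e-12).

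Rab27a and Rab27b, which dock secretory granules and lysosome-related organelles, were both lower in the PFC. Rab27a (ENSMUSG00000032202.11, chr9:73044854-73097629, plus strand) had 1.07, 1.27 and 1.58 RPKM in the PFC and 3.66, 3.90 and 4.93 RPKM in the hypothalamus. The regions were fully separate and differed 3.203-fold (log2 -1.68, SE 0.11, adjusted p = 9.77e-20). Rab27b had 3.63, 4.51 and 5.78 RPKM in the PFC and 6.14, 7.10 and 7.61 RPKM in the hypothalamus, also without overlap, for a 1.54-fold difference (log2 -0.63, SE 0.10, adjusted p = 5.95e-07). Rab37, a granule Rab known from mast cells, gave the widest gap of all members. It had 0.167, 0.409 and 0.666 RPKM in the PFC and 1.57, 2.94 and 5.41 RPKM in the hypothalamus (ENSMUSG00000020732.13, chr11:115091431-115162236, plus strand). It was low in all PFC libraries and varied more than 3-fold between hypothalamus libraries, and the fitted difference was 7.39-fold (log2 -2.89, SE 0.29, adjusted p = 6.41e-13). Rab26, a Rab of synaptic and secretory vesicles, was higher in the PFC, at 7.98 to 12.9 RPKM against 5.09 to 6.40 RPKM (log2 0.92, SE 0.14, adjusted p = 7.64e-08). An antisense gene, Rab26os, and Traf7 overlap Rab26.

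Among endosomal Rabs the strongest differences were in recycling and late endosomes. Rab15 (ENSMUSG00000021062.15, chr12:76797960-76822908, minus strand), a neuronal Rab that slows endocytic recycling, had 64.7, 70.0 and 77.8 RPKM in the PFC and 23.6, 24.98 and 30.3 RPKM in the hypothalamus. Even the lowest PFC library was above the highest hypothalamus library, and the level was 2.73-fold higher in the PFC (log2 1.45, SE 0.06, adjusted p = 4.28e-30). Rab9b (ENSMUSG00000043463.6, chrX:136858147-136868755, minus strand), the X-linked paralog of Rab9 in late endosome to Golgi traffic, had 5.34, 7.25 and 8.38 RPKM in the PFC and 23.8, 26.8 and 28.8 RPKM in the hypothalamus. It was 3.70-fold lower in the PFC, again without overlap (log2 -1.89, SE 0.13, adjusted p = 5.23e-19). Rab7 was slightly higher in the PFC (95.6 to 109 against 85.4 to 95.7 RPKM, log2 0.21, SE 0.04, adjusted p = 7.72e-05). Rab7b, a late endosomal Rab at a far lower level, was higher too (0.431 to 0.963 against 0.210 to 0.464 RPKM, log2 1.11, SE 0.22, adjusted p = 1.35e-05). Of 9 early endosomal Rabs, 1 was higher, 2 lower and 6 did not pass.

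Of 14 Rabs of the endoplasmic reticulum and Golgi, 3 were higher in the PFC, 3 lower and 8 did not pass. Rab6b (ENSMUSG00000032549.7, chr9:103111787-103185276, plus strand) had 211, 233 and 266 RPKM in the PFC and 130.1, 139 and 158 RPKM in the hypothalamus, without overlap (log2 0.72, SE 0.06, adjusted p = 1.66e-15). Rab6a was higher by less (log2 0.46, SE 0.09, adjusted p = 5.38e-06), with overlapping groups of 124 to 198 and 104 to 127 RPKM. Rab33a, a Golgi Rab of neurons and immune cells, was 2.00-fold higher in the PFC (16.3 to 23.3 against 8.77 to 10.98 RPKM, log2 1.00, SE 0.12, adjusted p = 1.59e-10). Its paralog Rab33b was lower (log2 -0.43). In traffic from Golgi to cell surface, 3 of 5 Rabs were lower in the PFC and 1 higher, among them Rab8a (log2 -0.24) and Rab8b (log2 -0.35), both lower. Rab40b (ENSMUSG00000025170.13, chr11:121356125-121388251, minus strand), a Rab with a SOCS box that recruits a ubiquitin ligase, had 14.1, 15.9 and 20.6 RPKM in the PFC and 3.28, 4.50 and 7.34 RPKM in the hypothalamus. It was the member with the highest fold in favour of the PFC, 3.60 (log2 1.85, SE 0.13, adjusted p = 3.81e-19), and its groups were far apart.

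The prenylation genes did not follow one direction. The escort gene Chml (chr1:175682237-175692901, minus strand) was lower in the PFC, with 1.52, 2.62 and 3.84 RPKM against 2.75, 3.84 and 4.57 RPKM in the hypothalamus. The groups overlapped, and the log2 fold change was -0.60 (SE 0.16, adjusted p = 0.00117). Chml overlaps Opn3 on the same strand. Its relative Chm (chrX:113040593-113185517, minus strand), the gene mutated in human choroideremia, had 6.82, 8.93 and 10.7 RPKM in the PFC and 6.25, 6.95 and 7.68 RPKM in the hypothalamus, with a log2 fold change of 0.33 (SE 0.18) that did not pass (adjusted p = 0.120), although it did by weighted voom, a linear model of log2 CPM that weights each library by its quality (log2 0.39, adjusted p = 0.000122) and with the animal as a block (edgeR adjusted p = 0.00397). Rabggta was higher in the PFC (8.64 to 12.4 against 8.41 to 10.1 RPKM, log2 0.25, SE 0.08, adjusted p = 0.00444), a call lost under 1 of 14 other settings of the processing. Rabggtb, the other subunit of the same enzyme, had nearly the same level in both regions (17.02 to 20.3 and 17.6 to 19.8 RPKM, log2 -0.05, SE 0.06, adjusted p = 0.491).

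The region comparison was then repeated in the psilocybin mice at 4 weeks, which are other mice and other libraries. Here 14 members were higher in the PFC and 14 lower, where 28.6% and 29.4% of all genes were called. In 10 members (17.9%) the groups did not overlap, as in 22.4% of all genes. Of the 33 members called in saline mice, 26 were called again (78.8%, or 92.9% of the 28 called in psilocybin mice), in every case in the same direction. Over all genes the shares were 83.5% and 79.5%, and 99.9% of the genes called in both had the same direction. All 33 kept their sign, as did 98.6% of all genes called in saline mice, and 48 of the 56 members did (85.7%, beside 85.4% of all genes). Both regions came from the same mice, and with the animal as a block 37 members were called in saline mice and 20 in psilocybin mice, all 20 also in saline mice and in the same direction, beside 63.7% and 42.6% of all genes. Rab40b had a log2 fold change of 1.78 (SE 0.13, adjusted p = 4.94e-18), with 13.5, 17.2 and 18.7 RPKM in 7 PFC libraries and 2.69, 4.53 and 8.00 RPKM in 8 hypothalamus libraries. For Rab15 it was 1.395 (SE 0.06, adjusted p = 9.64e-29), for Rab3d 1.13 (SE 0.13, adjusted p = 3.92e-11) and for Rab6b 0.79 (SE 0.06, adjusted p = 1.13e-16). On the hypothalamic side, Rab37 gave -2.47 (SE 0.30, adjusted p = 3.73e-10), Rab27a -1.79 (SE 0.12, adjusted p = 7.19e-20), Rab9b -1.69 (SE 0.14, adjusted p = 2.59e-16) and Rab3c -0.69 (SE 0.12, adjusted p = 7.13e-07). Rab34, a Rab of cilia and macropinocytosis, followed with -0.77 (SE 0.14, adjusted p = 4.03e-06), and was -0.59 without the hypothalamus library that stood apart. In both treatments the regions did not overlap for Rab6b, Rab15, Rab12, Rab40b and Rab3d, all higher in the PFC. The same held for Rab21, Rab9b, Rab27a and Rab37, all lower. The share of all genes without overlap in both treatments is not given here, so this list describes single members and not the set.

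With all libraries Rab3a (log2 0.03, adjusted p = 0.812) and Chml (log2 -0.29, adjusted p = 0.129) did not pass in psilocybin mice, while Chm passed (log2 0.71, SE 0.19, adjusted p = 0.00116), though not with the animal as a block (edgeR adjusted p = 0.0834). The hypothalamus library that stood apart belongs to this comparison: Chm had 0.956 RPKM there, with a group median of 6.48 and a highest value of 7.68 RPKM. Without it, 16 members were higher in the PFC and 15 lower, beside 30.8% and 28.2% of 18890 genes, and 30 of the 33 members called in saline mice were called again (90.9%, beside 89.9% of all genes), all in the same direction. Rab3a then passed (log2 0.20, SE 0.06, adjusted p = 0.00251), as did Chml (log2 -0.39, adjusted p = 0.0293), and Chm gave 0.54 (SE 0.13, adjusted p = 0.000428). Rab37 (-2.46), Rab27a (-1.82), Rab9b (-1.77), Rab3c (-0.79) and Rab40b (1.80) moved little. The members whose regions did not overlap went from 10 to 19, where 29.4% of all genes did not overlap. The test of whether a region difference depended on the treatment is the interaction at 4 weeks, which called no member.

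**Figure D2:**
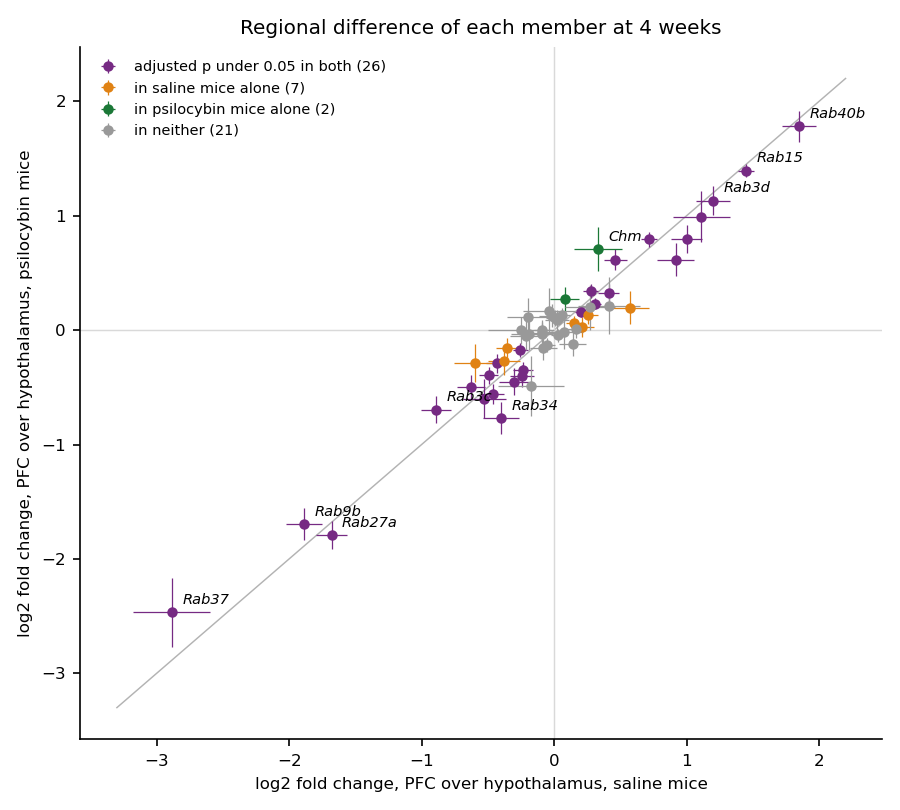
Log2 fold change of PFC over hypothalamus for the 56 members at 4 weeks in saline mice (horizontal) and psilocybin mice (vertical), with SE bars and the line of equality. The 26 members called in both treatments lie near that line, from Rab37 at -2.89 and -2.47 to Rab40b at 1.85 and 1.78, and 21 members were called in neither.

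Because paralogs share a pathway but can be used by different cells, the balance within 19 pairs was followed from mouse to mouse, as the log2 ratio of their RPKM in the PFC minus that in the hypothalamus of the same animal. In 8 saline mice 12 pairs shifted between regions (exact two-sided sign-flip permutation test over mice, Benjamini-Hochberg adjustment over 19 pairs). No share over other gene pairs stands beside this count, so it says nothing particular to paralogs. Pairs with Rab3a or Rab5a share a gene, and the libraries are those already tested gene by gene. The balance of Rab9 to Rab9b moved most, by 1.80 ± 0.29 (SD) towards Rab9 in the PFC, from -0.61 in the hypothalamus to 1.19 in the PFC. Rab40b over Rab40c shifted by 1.47 ± 0.35, Rab33a over Rab33b by 1.43 ± 0.31, Rab3a over Rab3c by 1.11 ± 0.27, Chm over Chml by 0.93 ± 0.26 and Rab3a over Rab3b by 0.50 ± 0.22. Rab27a over Rab27b shifted by -1.04 ± 0.34, Rab3a over Rab3d by -0.97 ± 0.20, Rab7 over Rab7b by -0.93 ± 0.43 and Rab11a over Rab11b by -0.56 ± 0.31. In each of these 10 pairs all 8 mice went the same way, which gives the smallest p this exact test allows with 8 mice, 0.00781 (adjusted p = 0.0148). Rab5a over Rab5c (-0.37, 7 of 8 mice, exact permutation p = 0.0156, adjusted p = 0.0270) and Rab6a over Rab6b (-0.27, 7 of 8 mice, exact permutation p = 0.0234, adjusted p = 0.0371) followed. The shift between escort genes meant that Chm exceeded Chml by 1.83 in the PFC and by 0.90 in the hypothalamus on the log2 scale.

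In the 7 psilocybin mice with both regions no pair passed the same exact test (lowest adjusted p = 0.0742, where the smallest unadjusted p possible is 0.0156), and 7 pairs had an unadjusted p under 0.05. All 12 pairs called in saline mice kept their sign, and 16 of 19 pairs did. All 7 mice went one way for Rab9 over Rab9b (1.53), Rab40b over Rab40c (1.504), Chm over Chml (1.19) and Rab27a over Rab27b (-1.30). Without the mouse whose hypothalamus library stood apart, the 12 signs were kept too. The exact test allows no p under 0.0312 with 6 mice, and the lowest adjusted p was 0.0660.

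**Figure D3:**
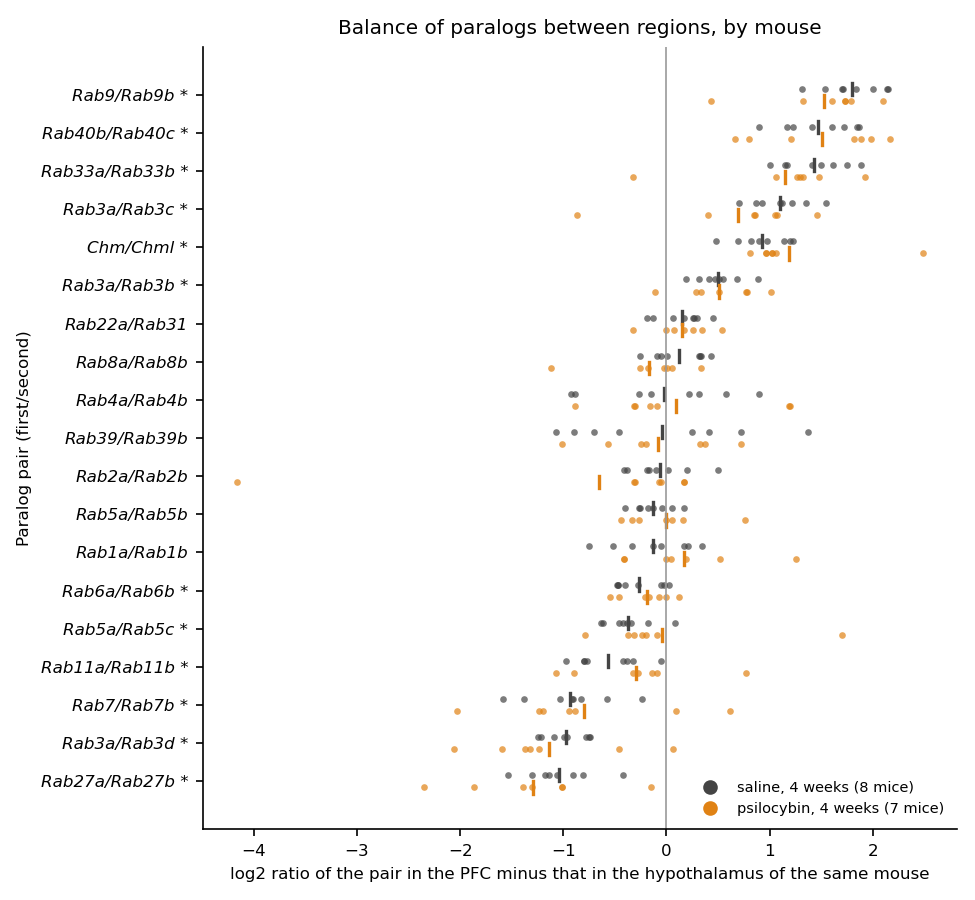
Shift of the log2 RPKM ratio of each paralog pair, PFC minus hypothalamus, for each of 8 saline mice (grey) and 7 psilocybin mice (orange), with means as vertical bars. An asterisk marks the 12 pairs with an adjusted p under 0.05 in saline mice, and the mice of Rab9 over Rab9b lie furthest to the right, around 1.80 in saline mice.

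The regulators of Rabs were followed as lists, read beside the 29.5% and 25.7% of all genes called higher and lower. Among 17 effectors of Rab3 and Rab27, 11 were higher in the PFC of saline mice and 5 lower, with a median log2 fold change of 0.72. They included the active zone scaffold Rims1 (log2 1.73, SE 0.09, adjusted p = 2.62e-24), the Rab27 effector Sytl2 (log2 1.55, SE 0.09, adjusted p = 1.18e-23) and, in the other direction, Rph3al (log2 -2.53, SE 0.21, adjusted p = 1.72e-16). Of 35 exchange factors, 13 were higher and 3 lower. Rin1, an exchange factor for Rab5 in forebrain neurons, had a log2 fold change of 3.36 (SE 0.26, adjusted p = 9.00e-17), and Rab3ip, which activates Rab8, had 0.73. Of 36 GTPase-activating proteins, 16 were higher and 4 lower (Tbc1d30 1.21, Tbc1d22a 0.63). All 3 genes of the kinase and phosphatase list were higher, among them Lrrk2, a kinase that phosphorylates Rabs (log2 1.68, SE 0.15, adjusted p = 4.74e-15), and Ppm1h, a phosphatase that reverses this (0.82). Of 25 endosomal and Golgi effectors, 8 were higher and 7 lower. Among 5 recycling factors 1 was higher and 2 lower, and of 4 other prenyltransferase genes 2 were lower. In psilocybin mice, where 28.6% and 29.4% of all genes were higher and lower, 10 effectors of Rab3 and Rab27 were higher and 4 lower. The counts were 16 and 2 for exchange factors, 16 and 6 for GTPase-activating proteins, and 12 and 4 for endosomal and Golgi effectors. All 3 genes of the kinase and phosphatase list were higher again, while 1 recycling factor was higher and 2 lower, and 1 other prenyltransferase gene was higher and 1 lower. Without hypothalamus replicate 5 (30.8% and 28.2% of all genes) the effectors of Rab3 and Rab27 gave 10 and 5, the exchange factors 14 and 3, the GTPase-activating proteins 16 and 5, the endosomal and Golgi effectors 11 and 7, and the prenyltransferase genes 0 and 1, with the other lists at the same counts.

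Markers of cell types moved between the regions as well. In saline mice at 4 weeks 6 of 6 cortical excitatory markers were higher in the PFC (median log2 4.43) and 9 of 10 hypothalamic markers lower (median -6.80). All 6 oligodendrocyte markers were lower in the PFC, as were 4 of 4 choroid plexus and 4 of 4 thalamic markers, while 5 of 5 microglial, 4 of 4 endothelial and 5 of 6 mural markers were higher. Of the other lists, 3 of 5 neuronal markers were higher and 1 lower, 2 of 6 striatal markers higher and 1 lower, 1 of 5 astrocyte markers higher and 2 lower, 2 of 3 inhibitory neuron markers lower and 1 of 2 pituitary markers lower, and neither of the 2 markers of oligodendrocyte precursors passed. Over all 62 libraries the oligodendrocyte list summed to 2162 to 6254 CPM in the PFC and 6541 to 11283 CPM in the hypothalamus, and the neuronal list to 4364 to 7055 and 2858 to 3661 CPM. The astrocyte list (1212 to 2564 and 1529 to 2531 CPM) overlapped between the regions. The inhibitory list summed to 499.5 to 781 CPM in the PFC and, in the hypothalamus, to 546 CPM in the library that stood apart and to 836 to 1352 CPM in the other 30, without overlap but for that library. Their part in the members' region differences was not tested.

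The contrast that led to the choice of these genes was psilocybin against saline in the PFC at 3 h. In it 35 of 56 members (62.5%) had a log2 fold change above 0, where 48.0% of all genes did, and the median was 0.05 over the members and -0.01 over all genes. These values chose the set, so nothing is read from its counts here. No member had an adjusted p under 0.05 by edgeR or DESeq2, where 0.0105% and 0.0475% of all genes did, and 4 had an unadjusted p under 0.05 (7.23% of all genes), a count that became 16 higher and 2 lower without psilocybin replicate 7, where 14.2% of all genes passed. With voom weights per library and the animal as a random effect, 15 members were past the threshold and higher (5.18% of all genes were). This fit was modelled on the procedure of the study, with another coding of pools and contrasts. With voom without these weights no member was past the threshold. Those 15 included Rab2a (log2 0.42 in that fit), Rab39b (0.46), Chm (0.38), Rab18, Rab21, Rab33b, Rab6a, Rab1a and Rab10. By role they were 6 of 14 Rabs of endoplasmic reticulum and Golgi, 3 of 9 of early endosomes and 3 of 5 of Golgi-to-surface traffic. Prenylation gave 1 of 4, late endosomes 1 of 8, recycling endosomes 1 of 4, regulated secretion 0 of 8 and the cilium and other Rabs 0 of 4. These counts too are a description.

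In edgeR's fit the members furthest above 0 were Rab39 (log2 0.40, SE 0.24), Rab2a (0.26), Rab33b (0.24), Rab32 (0.23), Rab18 (0.22) and Rab21 (0.21), and the furthest below were Rab26 (-0.23), Rab37 (-0.18) and Rab24 (-0.16). Rab2a had a lowest, median and highest value of 69.0, 140.6 and 149.96 RPKM after psilocybin and 80.9, 102 and 161 RPKM after saline. The groups overlapped throughout, with the lowest value in the psilocybin library that stood apart. Rab33b had 7.88, 8.95 and 9.92 RPKM after psilocybin and 6.12, 7.46 and 9.41 RPKM after saline. Chm had 4.58, 9.45 and 10.5 RPKM after psilocybin and 5.13, 7.30 and 11.5 RPKM after saline (log2 0.21), and Chml gave 0.11, Rabggta -0.08 and Rabggtb -0.03. The Rabs of regulated secretion were centred near 0 (median -0.01, 3 above and 5 below). The summed RPKM of the members was 1776 ± 88.2 after psilocybin and 1718 ± 84.9 after saline. Over all libraries left out in turn the members' median ran from 0.03 (without saline replicate 7) to 0.09 (without saline replicate 3), and by weighted voom it was 0.08. Without psilocybin replicate 7 it was 0.05, with 33 members above 0 and 23 below, and no member was called, beside 9 of 18984 genes.

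The base composition of the members moved with these values. Split at a GC content of 49.5% of their exons, the 28 members of lower GC had a median log2 fold change of 0.11 in the PFC at 3 h and the 28 of higher GC one of -0.02, where all genes in the same ranges had medians of 0.05 and -0.05. Of the 15 members past the threshold in the weighted fit, 14 were in the lower range. The share of all genes past it that lay in that range is not given here, so the count is a description. With an offset for length and GC the medians became 0.05 and 0.02. In the other 3 contrasts of psilocybin against saline the medians of the lower and higher GC members were 0.05 and -0.03 in the PFC at 4 weeks (0.03 and -0.04 over all genes), 0.00 and -0.03 in the hypothalamus at 3 h (0.02 and -0.02) and -0.07 and 0.07 in the hypothalamus at 4 weeks (-0.04 and 0.06). Without replicate 5 of the hypothalamus psilocybin mice the members' pair at 4 weeks in the hypothalamus became -0.02 and 0.00, and without PFC psilocybin replicate 7 the medians at 3 h became 0.21 and -0.05. Across the 56 members, which share libraries and are not replicates, Spearman's rho between log2 fold change and GC content was -0.60 (PFC, 3 h), -0.73 (PFC, 4 weeks), -0.28 (hypothalamus, 3 h) and 0.62 (hypothalamus, 4 weeks). Without those libraries it was -0.74 in the PFC at 3 h and 0.26 in the hypothalamus at 4 weeks. The libraries that stood apart showed the same axis. Hypothalamus psilocybin replicate 5 at 4 weeks had a median of -0.50 over the lower GC members and 0.56 over the higher GC members, relative to the rest of its group, and PFC psilocybin replicate 7 at 3 h had -0.74 and 0.22. What part base composition has in the members' values was not tested further.

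**Figure D4:**
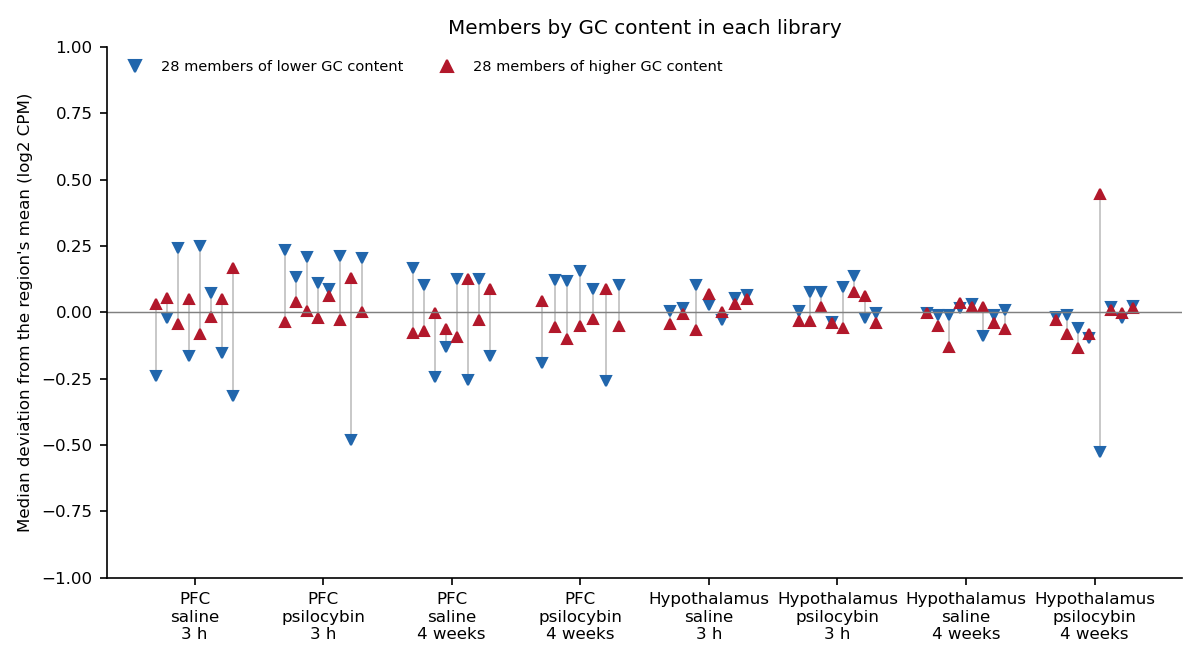
Median deviation (log2 CPM) from the mean of the region, for the 28 members of lower GC content (blue, pointing down) and the 28 of higher GC content (red, pointing up), in each of 62 libraries by group. The members of the 2 ranges part most widely in hypothalamus psilocybin replicate 5 at 4 weeks and PFC psilocybin replicate 7 at 3 h.

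The remaining contrasts of psilocybin against saline gave no call. Their fold changes did not choose the members, though their libraries entered the mean CPM of the level threshold. In the PFC at 4 weeks 26 members were above 0 and 30 below, with a median log2 fold change of -0.01. No member was called by edgeR, weighted voom or DESeq2, where 0%, 0% and 0.100% of all genes were, and 0 members had an unadjusted p under 0.05, beside 2.40% of all genes. The lowest unadjusted p values belonged to Rab29 (log2 -0.20, SE 0.15, unadjusted p = 0.184), a lysosomal and Golgi Rab linked to Lrrk2, to Rab39b (log2 0.21, unadjusted p = 0.208), a neuronal Rab encoded on the X chromosome, and to Rab26 (log2 -0.17, unadjusted p = 0.236). In the hypothalamus at 3 h, 25 members were above 0 and 31 below, with none called by any of the 3 tools (0% of all genes by each) and none at an unadjusted p under 0.05 (1.78% of all genes). Rab7b came closest (log2 -0.46, SE 0.23, unadjusted p = 0.0513), before Rab4b (log2 -0.29, unadjusted p = 0.262) and Rab28 (log2 -0.06, unadjusted p = 0.279).

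In the hypothalamus at 4 weeks 28 members were above 0 and 28 below. Again none was called by edgeR, weighted voom or DESeq2 (0%, 0% and 0.0686% of all genes), and 1 had an unadjusted p under 0.05, beside 9.61% of all genes. This was Rab24, a Rab of autophagy, which had 9.21, 10.1 and 31.4 RPKM after psilocybin and 8.86, 9.59 and 10.7 RPKM after saline. Only the library that stood apart lay far above the saline range, and the log2 fold change of 0.37 (SE 0.14, unadjusted p = 0.0106, adjusted p = 0.448) became 0.03 without it (unadjusted p = 0.708). Rab33a and Rab8a behaved likewise, with 0.23 and 0.14 with that library and -0.03 and 0.02 without it. Of the prenylation genes, Chm gave 0.15 in the PFC at 4 weeks, 0.02 in the hypothalamus at 3 h and -0.23 in the hypothalamus at 4 weeks (-0.06 without the library that stood apart), none past the threshold. By edgeR no gene of these regulator lists was called in the PFC at 4 weeks or in the hypothalamus at either time, where 0% of all genes were.

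**Figure D5:**
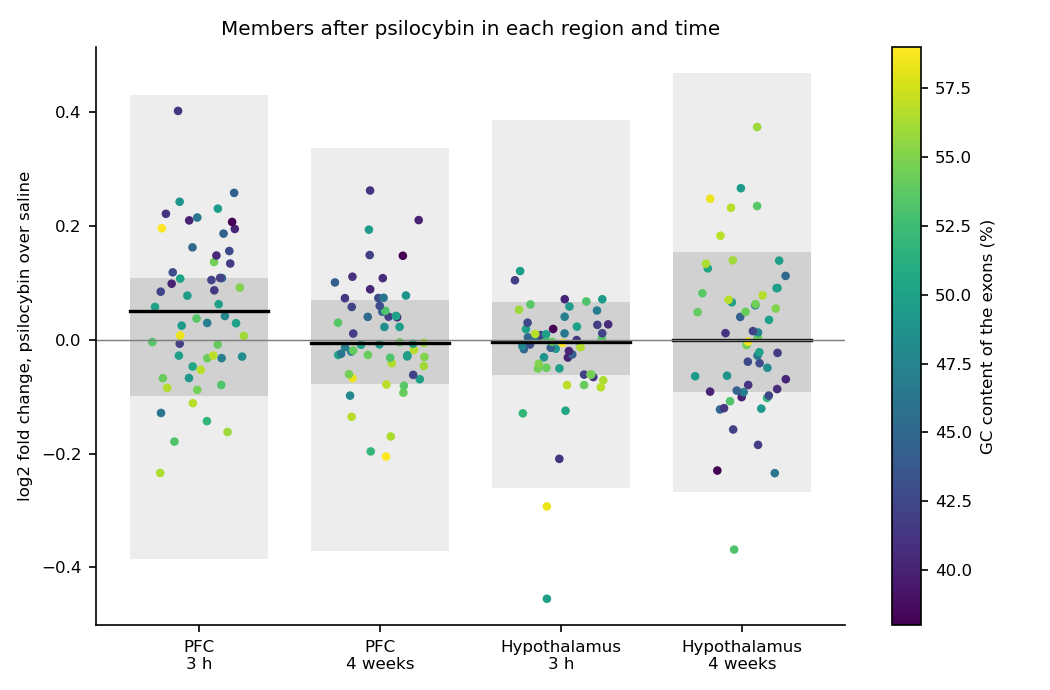
Log2 fold change of psilocybin over saline for the 56 members in the PFC at 3 h and 4 weeks and the hypothalamus at 3 h and 4 weeks, coloured by the GC content of the exons. The black line is the members' median (0.05, -0.01, -0.00 and 0.00), and the dark and light grey bands hold the middle 25 to 75% and 5 to 95% of all genes tested.

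Whether the effect of psilocybin differed between regions or times was tested with interaction terms in contrasts that leave out the PFC at 3 h. At 4 weeks the difference between PFC and hypothalamus was called for no member by edgeR, weighted voom or DESeq2 (0%, 0% and 0.338% of all genes), and for 0 members at an unadjusted p under 0.05 (6.69% of all genes). Rab34 (log2 -0.37, unadjusted p = 0.0618), Rab24 (-0.38, unadjusted p = 0.0654) and Rab1b (-0.26, unadjusted p = 0.0809) came closest, and without hypothalamus psilocybin replicate 5 they gave -0.19, -0.04 and -0.10 (unadjusted p = 0.270, 0.743 and 0.383). Between 3 h and 4 weeks in the hypothalamus, again no member was called by the 3 tools (0% of all genes by each) or had an unadjusted p under 0.05 (5.27% of all genes), the nearest being Rab8a (-0.19, unadjusted p = 0.0738), Rab3c (0.29, unadjusted p = 0.0760) and Rab1b (-0.26, unadjusted p = 0.0799). Without the same library these were -0.07, 0.20 and -0.11 (unadjusted p = 0.340, 0.158 and 0.352).

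The saline mice allowed a comparison of the harvest times themselves, which were reached by different mice. Those harvested at 4 weeks were also older, so age and time since the injection cannot be told apart. In the hypothalamus, saline at 3 h against 4 weeks gave no called member by edgeR or DESeq2, where 0.685% and 1.01% of all genes were called, and 4 members at an unadjusted p under 0.05, beside 8.09% of all genes. Of the members, 37 (66.1%) were above 0, where 50.7% of all genes were, and the median was 0.03. Rab39, an endosomal and Golgi Rab linked to autophagy, was at 0.869 ± 0.303 RPKM (SD, n = 7) at 3 h and 0.554 ± 0.155 RPKM (n = 8) at 4 weeks, a log2 fold change of 0.63 (SE 0.25, unadjusted p = 0.0137, adjusted p = 0.386). Rab15 (0.13, unadjusted p = 0.0334), Rab31 (0.18, unadjusted p = 0.0424) and Rab40c (0.17, unadjusted p = 0.0450) were the others. By weighted voom 5 members (8.93%) passed, beside 7.45% of all genes, among them Rab39 (log2 0.56, adjusted p = 0.0479), Rab40c (adjusted p = 0.0399) and Rab35 (adjusted p = 0.0345).

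In the PFC the same comparison uses the saline mice of the contrast that chose the members and is given as a description. Of the members, 34 were above 0 and 22 below, with a median of 0.02, and 2 (3.57%) were past edgeR's threshold, beside 4.72% of all genes. Rab15 was higher at 3 h, at 82.5 ± 7.80 RPKM (SD, n = 8) against 70.4 ± 4.31 RPKM (log2 0.23, SE 0.06), and Rab36, a Golgi Rab, was lower, at 4.66 ± 0.745 against 5.72 ± 0.899 RPKM (log2 -0.29, SE 0.09). By weighted voom 3 members were past the threshold, all higher, with Rab15 among them and Rab36 not (log2 -0.21, SE 0.09), beside 6.12% of all genes. This count ranged from 0 to 7 with the processing.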

How the data were processed

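RNA was extracted from both regions, libraries were made with a stranded mRNA kit (Illumina TruSeq) and sequenced as paired ends, and the authors deposited raw counts per gene, whole numbers that were not normalized. Per the study's methods and the submitters' processing notes, reads were demultiplexed with bcl2fastq 2.20.0, aligned to GRCm38 with GENCODE vM25 by STAR 2.7.2b and counted by strand with featureCounts 1.6.2, so an antisense gene is separated but genes overlapping on the same strand are not. The study left out 2 libraries with almost no reads, as was done here (under 1000000 counts), and 1 more that the labels do not name and that is therefore kept here. The members and the gene lists were chosen with earlier results of these data known.

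Counts were analysed in R 4.3.3 with edgeR 4.0.16 (TMM scaling, filterByExpr with a minimum count of 10, robust quasi-likelihood test) on 62 libraries and 18971 genes, with group and extraction pool in the model and Benjamini-Hochberg adjustment over all genes at 0.05. All 56 members passed the filter, and 52 had at least 10 counts in every library. Weighted voom means voomWithQualityWeights and duplicateCorrelation by animal in limma 3.58.1. It was modelled on the procedure of the study, but pools were centred within regions and each contrast was fitted as its own coefficient. DESeq2 1.42.0, an offset for length and GC (splines with 5 degrees of freedom), blocks, other filters and leaving out each library were alternatives. Levels are TMM-scaled CPM and RPKM, with prior counts of 2 and 0.5 on their log2 scales. Paralog ratios used numpy 2.4.6 and pandas 2.3.3. The members named are the prenylation genes, the Rab3 and Rab27 genes, the most abundant member of each role, in each tested comparison the 5 called members furthest in each direction (or, with fewer than 3 calls, the 3 of smallest p), the 6 highest and 3 lowest in the PFC at 3 h, the called paralog pairs and the 3 on each side of the CPM threshold. In each list of other genes the 2 of smallest p are named if called. Rph3al and members outside this rule were named after their values were seen. Replicates are separate mice. The replicate number equals the cage number in the labels, and both regions of a mouse share an animal. After groups were removed, same-numbered libraries correlated at a mean r of 0.0723 in the hypothalamus and 0.0806 in the PFC, other-numbered libraries of the same pool at 0.0765 and 0.0860, and the 2 libraries of a mouse at 0.0854. With the pool removed too, these values were -0.0236 and -0.0415, -0.0326 and -0.0384, and 0.0289. None of 210 pairs of libraries within groups looked like a duplicate (smallest chi-square per degree of freedom 3.85). The code was tested on simulated data. Promoters come from RefSeq (GRCm38.p6). The result of 1 list of pathway genes is not reported here.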

Additional observations from a re-analysis of the deposited data

Results flagged for a closer look

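For 42 named members, the CPM values of each of the 8 groups were searched for a library far from all others of its group (Dixon's criterion at 95%). Of 336 sets of values, 43 (12.8%) held one. The sets share libraries, and some members were named for values that these libraries moved, so the share is a description and is set against no chance rate. Most came from the 2 libraries that stood apart: 21 from hypothalamus psilocybin replicate 5 at 4 weeks and 15 from PFC psilocybin replicate 7 at 3 h.

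In the hypothalamus library both escort genes were among the members below the rest of the group. Its CPM values, with the range of the other 7 libraries in brackets, were Chm 6.48 (38.7 to 52.0), Chml 11.7 (22.3 to 30.3), Rab10 105 (142 to 155), Rab18 93.4 (139 to 155), Rab27b 36.0 (69.5 to 80.9), Rab5a 35.5 (97.4 to 108), Rab6a 311 (386 to 452), Rab9b 58.3 (96.5 to 108). Above the rest of the group were Rab11b 158 (85.3 to 99.7), Rab1b 247 (107 to 132), Rab24 63.2 (18.6 to 23.7), Rab2a 340.5 (252 to 266), Rab33a 29.5 (9.73 to 13.1), Rab3a 842 (383 to 461), Rab3b 106 (54.0 to 74.0), Rab40c 42.2 (25.5 to 32.0), Rab7 310.3 (223 to 257), Rab8a 69.9 (36.3 to 44.9), Rab9 43.8 (28.5 to 35.1), Rabggta 46.3 (31.1 to 37.0), Rabggtb 61.4 (41.1 to 50.3).

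In the PFC library the members far below the rest were, in CPM with the range of the other 7 libraries in brackets, Chm 31.0 (56.7 to 71.0), Rab10 103 (159.5 to 186), Rab11a 50.7 (113 to 140.3), Rab18 126 (184 to 212), Rab27b 28.3 (46.6 to 62.1), Rab2a 147 (281 to 319.9), Rab39 1.23 (2.03 to 2.73), Rab39b 14.2 (43.9 to 54.6), Rab5a 57.2 (87.4 to 111), Rab6a 382 (576 to 724), Rab9b 12.5 (29.9 to 39.0). Far above the rest were Rab11b 133 (96.3 to 110.5), Rab1b 219 (119.7 to 141), Rab34 20.4 (7.16 to 12.8), Rab5c 195 (136 to 162). Both libraries were thus low in Chm, Rab10, Rab18, Rab27b, Rab5a, Rab6a and Rab9b and high in Rab11b and Rab1b, while Rab2a was high in the hypothalamus library and low in the PFC library.

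The other 7 values came from 7 different libraries. Rab28 had 51.6 CPM in hypothalamus psilocybin 3 h replicate 4, where the other libraries had 58.1 to 63.0 CPM. Rab32 had 2.93 CPM in hypothalamus psilocybin 3 h replicate 5, where the other libraries had 1.12 to 1.93 CPM. Rab33a had 7.63 CPM in hypothalamus psilocybin 3 h replicate 2, where the other libraries had 10.3 to 12.5 CPM. Rab3b had 63.6 CPM in PFC saline 4 weeks replicate 6, where the other libraries had 43.1 to 51.2 CPM. Rab40b had 40.1 CPM in PFC saline 3 h replicate 3, where the other libraries had 27.4 to 30.7 CPM. Rab7 had 258 CPM in PFC saline 3 h replicate 1, where the other libraries had 282 to 303 CPM. Rab9 had 36.3 CPM in hypothalamus saline 4 weeks replicate 5, where the other libraries had 27.2 to 30.8 CPM.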

How the results depend on the processing

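The counts of region differences ran from 30 to 38 in saline mice and from 20 (animal block, 42.6% of all genes) to 38 in psilocybin mice over the alternatives, 38 being by weighted voom in each (67.1% and 65.1% of all genes). Leaving out each library gave 31 to 34 called members in saline mice (53.2% to 54.5% of all genes, against 33 and 55.2% with all) and 27 to 31 in psilocybin mice (55.1% to 59%, against 28 and 58.0%), and the replicate block (cage number) gave 33 and 28 (55.1% and 56.5%). That block gave 2 calls between saline harvest times in the PFC and 0 in every contrast of psilocybin, and changed no other call. In the PFC at 3 h weighted voom called 15 members, against 0 by edgeR. The same procedure with treatment coding and contrasts taken from a single fit, nearer to the model the study states, called 17 (8.18% of all genes in either direction). That alternative was chosen after seeing the data. In hypothalamus saline at 3 h against 4 weeks weighted voom called 5 members against 0, with Rab39 at 0.56 now past the threshold. PFC saline at 3 h against 4 weeks, 2 members as reported, gave 0 without a filter, with all 64 libraries or with only the groups compared (1.01%, 2.78% and 1.87% of all genes), 1 without the extraction pool (3.37%), 4 with the offset for length and GC (8.10%), 5 with that offset and the replicate block (7.66%), 7 without the 2 libraries that stood apart (10.1%), and 1 to 4 when each library was left out, the value of 4 being without PFC saline 3 h replicate 5 (7.25%). The cause was not tested. Members' medians that moved were small: PFC against hypothalamus in psilocybin mice 0.0631 by weighted voom (0.00 as reported), the 3 h against 4 weeks interaction 0.0324 without a filter (-0.01), and the regional interaction at 4 weeks (-0.05) 0.0306 by weighted voom, 0.0126 with the offset and replicate block, 0.0361 with all 64 libraries, 0.0147 without the 2 libraries that stood apart, 0.0244 by voom without weights (chosen after seeing the data) and -0.0578 to 0.0408 when each library was left out, the last being without hypothalamus psilocybin 4 weeks replicate 1. Among all 56 members single calls crossed the threshold in the region comparisons: with a library left out, 14 of 896 values of 4 members in saline mice and 16 of 840 values of 7 members in psilocybin mice, and under other settings 39 of 780 values of 11 members and 64 of 780 values of 23 members. In the other tested comparisons the 5 members of hypothalamus saline by weighted voom were the only ones that crossed. Members of a few counts, such as Rab37 and Rab7b in the PFC, are limited by depth: the lowest count of a member in a library was 4. Reads of Rab genes with near-identical copies, such as Rab11b, and of genes that overlap on the same strand, such as Chml, may be assigned to the wrong gene.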
